A study of Mus musculus with 10 samples.

Results

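Glutathione S-transferases and the enzymes that make glutathione were followed through 10 genes: the mu class transferases Gstm1, Gstm2 and Gstm5, the alpha class Gsta4, the pi class Gstp1, the theta class Gstt1, the omega class Gsto1, and the synthesis genes Gclc, Gclm and Gss. Every probe set that the platform annotation gives to a single one of these genes was taken, which gave 16 of the 12422 probe sets on the array that are not controls. The array named 8251 genes in all. A probe set, the unit of an Affymetrix array, reads one transcript with several short probes, and each was kept on its own because those of one gene can differ. Hippocampal RNA came from male C57BL/6 mice at 30 months of age, 5 of them under calorie restriction, long-term per the series title, and 5 on a control diet, with 1 array per mouse. The values used are intensities on a linear scale, already brought to a common level on each array by the authors.

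Glutathione is a tripeptide that serves as the main small thiol antioxidant of the brain. Glutamate-cysteine ligase, built from the catalytic subunit Gclc and the modifier Gclm, joins glutamate to cysteine, and glutathione synthetase, Gss, adds glycine. The transferases couple glutathione to electrophiles such as aldehydes from lipid peroxidation, and in the brain much of the pathway is found in astrocytes. Many of these genes are known targets of the transcription factor Nrf2, which binds antioxidant response elements (ARE) together with small Maf proteins.

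Promoters were searched because the Nrf2 element is the common regulatory feature for which this group is known. They are shown for the 3 genes with a match to either of the motifs searched. The RefSeq windows of build GRCm38.p6 run from 250 bases before to 50 bases after each start site. They were found for 8 of the 10 genes, in 9 windows, and Gsta4 and Gclc had none and were not searched. The windows were searched on both strands for the ARE core TGACNNNGC and for the AP-1 motif TGANTCA. The ARE core occurred in 2 of these genes, Gstm5 and Gclm, and in 14.0% of all 27025 genes with a window, or 12.4% of all 32851 promoter windows. The AP-1 motif occurred in Gstm5 and Gstp1, and in 8.97% of all genes with a window, or 7.81% of all windows. In Gclm the core lies on the opposite strand, as TGACGGTGC, and appears in the printed strand as its reverse complement, GCACCGTCA. The motifs can overlap in general and do not in these 3 windows. Matches describe the letters in these windows and not binding. No other form of either motif was searched, so a window without a match, or Gstp1 without the ARE core, may still hold another form. In the 3 sequences below, each printed 5′ to 3′ on the strand of its gene, capitals mark the matches.
Gstm5 (chr3:107895604-107895903, plus strand): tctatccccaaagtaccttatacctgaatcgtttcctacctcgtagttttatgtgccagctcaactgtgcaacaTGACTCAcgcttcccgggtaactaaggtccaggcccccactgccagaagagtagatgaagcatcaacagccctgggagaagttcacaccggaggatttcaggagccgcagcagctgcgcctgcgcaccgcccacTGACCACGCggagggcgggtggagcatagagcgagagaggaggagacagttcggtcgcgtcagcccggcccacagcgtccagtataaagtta
Gclm (chr3:122245307-122245606, plus strand): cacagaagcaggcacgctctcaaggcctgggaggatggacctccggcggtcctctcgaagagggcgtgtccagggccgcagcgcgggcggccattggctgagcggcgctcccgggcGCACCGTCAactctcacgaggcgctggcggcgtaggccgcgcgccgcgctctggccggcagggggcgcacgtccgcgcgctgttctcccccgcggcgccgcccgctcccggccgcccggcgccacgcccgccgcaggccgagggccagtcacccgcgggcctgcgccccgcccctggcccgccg
Gstp1 (chr19:4037863-4038162, minus strand): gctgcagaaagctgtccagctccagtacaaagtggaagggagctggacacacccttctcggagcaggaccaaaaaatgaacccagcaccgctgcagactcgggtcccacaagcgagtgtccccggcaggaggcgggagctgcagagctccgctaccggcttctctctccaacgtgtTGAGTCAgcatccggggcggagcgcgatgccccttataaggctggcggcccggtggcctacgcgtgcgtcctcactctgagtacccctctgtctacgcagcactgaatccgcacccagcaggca

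The arrays of the diets differed in quality measures, which touch every value that follows. The ratio of the 3′ to the 5′ control signal grows when RNA is broken or incompletely copied. For Gapdh, a glycolytic enzyme, it was 1.29, 1.24, 82.7, 1.98 and 161 in calorie restricted replicates 1 to 5, against 0.815 to 1.53 in control mice. Averaged on the log2 scale over Gapdh and Actb, the ratio was 2.88 ± 2.57 under calorie restriction, against 0.16 ± 0.24 in controls (mean ± SD, n = 5 each). This gave an exact two-sided permutation p of 0.00794, the smallest that 5 arrays against 5 allow, and 0.00992 after adjustment over 5 measures. The bacterial spike-ins were brighter under calorie restriction, at 13.05 ± 0.47 against 11.12 ± 0.56 in controls on the log2 scale, with the same exact permutation p. Their part in the results below was not tested. For each member call, values with an RNA quality covariate, with spike-in signal added to it, and without calorie restricted replicates 3 and 5 are given where it is described. For calls in the pathway lists these values are given in part, and for calls among cell markers they are not given.

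Diets were compared in limma on log2 intensities over the 7453 probe sets with a mean log2 signal of at least 6.85. The threshold was 0.05 after Benjamini-Hochberg adjustment over all of these. Each change is a log2 difference, calorie restricted minus control, from which the median over the tested probe sets (-0.15) was subtracted, while the test is of the change before that subtraction. Of the 16 probe sets 15 were tested, from all 10 genes. Of these 2 rose, 1 fell and 12 did not pass, a share of 20%, while 11.8% of all tested probe sets passed, 4.11% higher and 7.74% lower. One of the 2 that rose, Gsta4, reached the signal minimum only through its calorie restricted arrays, so it had to differ in that direction and its call carries no weight in the count. All 3 calls were among the 11 tested transferase probe sets, and the 2 besides Gsta4 were probe sets of Gstm5 that went opposite ways. Of the 4 probe sets of the synthesis genes 0 passed, with 1 at an unadjusted p under 0.05, Gss 101425_at. Beside the 11.8% of all tested probe sets, counts this small do not set the transferases and the synthesis genes apart. The median change over the 15 was 0.10, with 8 above and 7 below the median of all tested probe sets. In 2 of the 15 every calorie restricted array lay above every control array and in 0 below. Over all tested probe sets 14.3% had no overlap, 4.96% above and 9.35% below.

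Gstm5, a mu class transferase of brain and testis, had 4 probe sets, and they did not move together. Probe set 100630_f_at rose, 100631_r_at fell, and 100629_at and 161722_f_at did not pass. The letter f marks probe sets that can match a family of related transcripts and r those built with relaxed rules. These sets may thus read different members of the mu class or rest on fewer probes, which was not tested. Among all members, 1 of the 8 tested probe sets without such a letter passed, Gsta4. Of the 7 with a letter 2 passed, both of Gstm5. These are 12.5% and 28.6%, against 11.8% of all tested probe sets.

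The intensity of Gstm5 100630_f_at was 13168, 13242, 22626, 17804 and 32522 in calorie restricted mice and 8873, 9228, 10403, 9495 and 8905 in control mice. All calorie restricted arrays were above all control arrays, and replicates 5 and 3, with the highest Gapdh ratios, were highest. The change was 1.15 ± 0.24 (SE, n = 5 per diet; limma adjusted p = 0.0236), a 2.22-fold rise relative to the median. Quantile normalization left 0.50 ± 0.18, short of the threshold (limma adjusted p = 0.120). Without calorie restricted replicates 3 and 5 it passed at 0.74 ± 0.14 (limma adjusted p = 0.0206). An RNA quality covariate gave 0.54 ± 0.18 and, with spike-in signal added, 1.02 ± 0.32, and neither passed (limma adjusted p = 0.145 and 0.293). It also missed the threshold without control replicate 1, 2, 3 or 4 or calorie restricted replicate 3, with changes of 1.09 to 1.20 and limma adjusted p of 0.0529 to 0.0589.

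Gstm5 100631_r_at went the other way, with 328, 110, 101, 204 and 67.2 in calorie restricted mice and 295, 716, 773, 1118 and 808 in control mice. The groups overlapped through replicate 1 of each diet, and the lowest array was calorie restricted replicate 5. The change was -2.15 ± 0.45 (SE; limma adjusted p = 0.0123), and the probe set passed with any 1 array left out, with changes of -2.47 to -1.92. It passed under quantile normalization with -2.04 ± 0.43 and without calorie restricted replicates 3 and 5 with -1.71 ± 0.43 (limma adjusted p = 0.0182 and 0.0252). An RNA quality covariate gave -1.47 ± 0.47, short of the threshold (limma adjusted p = 0.0760). Adding spike-in signal as well turned the direction, to 0.24 ± 0.79 (limma adjusted p = 0.975).

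For the other Gstm5 probe sets the diets overlapped. Signals of 100629_at ran from 1149 to 1995, median 1464, in calorie restricted and from 1531 to 2282, median 1911, in control mice, with a change of -0.18 ± 0.18 (SE; limma adjusted p = 0.234). Those of 161722_f_at ran from 67.0 to 233 and from 84.6 to 189, with a change of -0.13 ± 0.40 (limma adjusted p = 0.649).

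Gstm1, the mu class transferase known as abundant in astrocytes, had a pair of probe sets that differed in the same manner. Its set 93543_f_at had 14441, 12940, 17172, 14168 and 14129 in calorie restricted mice, against 10735, 9724, 11268, 11329 and 9865 in control mice. These groups did not overlap, yet the change of 0.61 ± 0.14 (SE) just missed the threshold (limma adjusted p = 0.0545), and it was -0.02 ± 0.14 under quantile normalization. The set 161633_r_at had 679, 810, 613, 563 and 486 in calorie restricted mice, against 757, 779, 741, 954 and 667 in control mice. The groups overlapped, with a change of -0.17 ± 0.18 (SE; limma adjusted p = 0.250).

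Gstm2, the third mu class gene here, had lower average signals in calorie restricted mice in both of its probe sets, and neither is a call. The set 161357_r_at had 486, 517, 509, 568 and 249 in calorie restricted mice and 392, 890, 877, 703 and 725 in control mice. All calorie restricted arrays but replicate 5 lay between control replicate 1 and the other control arrays, and the change was -0.47 ± 0.28 (SE; limma adjusted p = 0.154). The set 93009_at was the one below the filter on signal, with 47.9, 58.2, 80.5, 91.4 and 50.9 in calorie restricted and 123, 187, 49.6, 189 and 117 in control mice. These overlapped through control replicate 3.

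**Figure D1:**
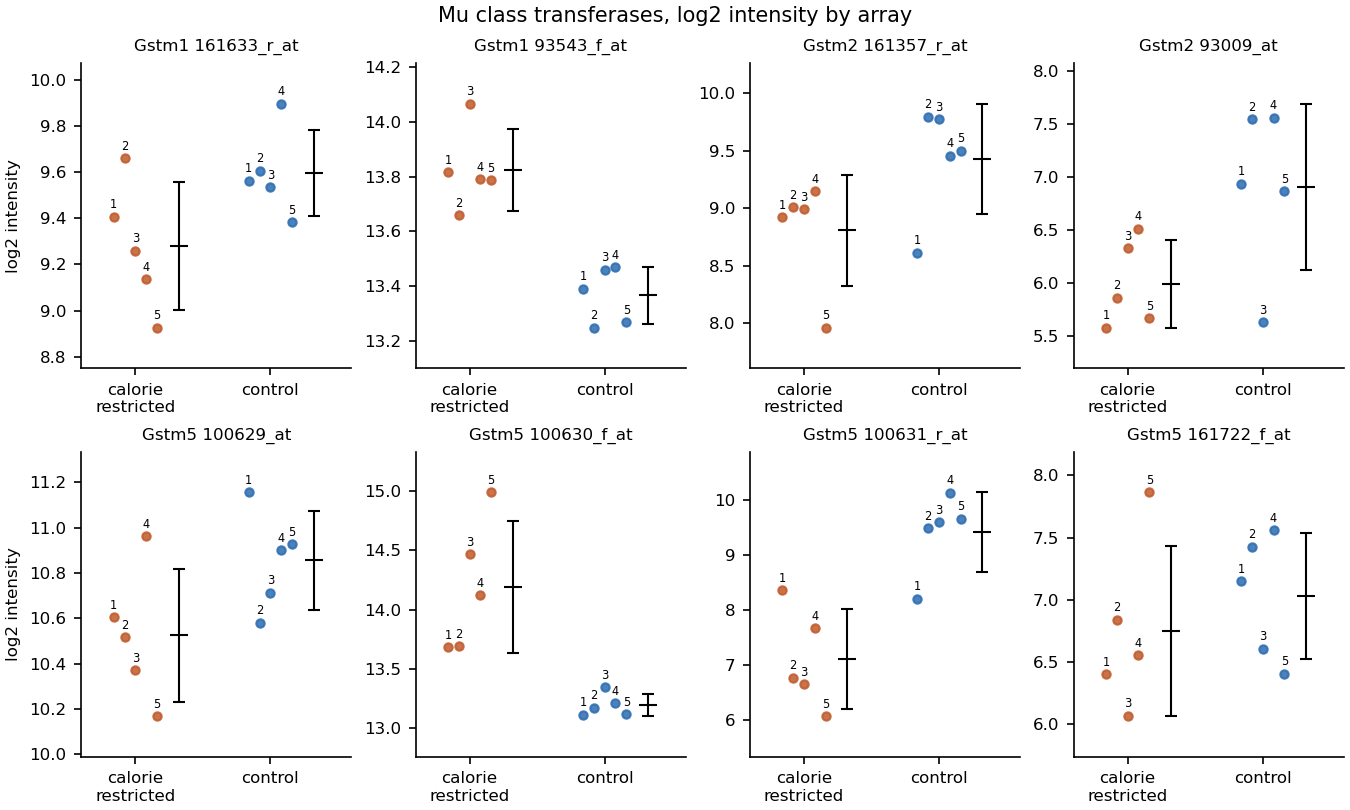
Log2 intensity of the 8 mu class probe sets, 1 panel each, with calorie restricted arrays left and control arrays right. Points are arrays labelled by replicate number, and the bar beside them is the mean ± SD (n = 5). In Gstm1 93543_f_at and Gstm5 100630_f_at the diets do not overlap and calorie restricted arrays are higher, while in Gstm5 100631_r_at 4 of the 5 calorie restricted arrays lie below all control arrays.

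Whether probe sets of one gene differed in their response was tested directly, as the log2 difference between 2 probe sets within each array, over the 9 pairs that share a gene. In 6 of the 9 pairs the difference itself differed between diets (exact two-sided permutation test, adjusted p from 0.0179 to 0.0357 over the 9 pairs, n = 5 per diet), 5 of them in Gstm5 and 1 in Gstm1. The Gstm5 pairs share probe sets, so they are not independent of each other. The share of such pairs among the other genes of the array was not computed, so the count is not shown to be particular to these members. Under quantile normalization 3 of the 6 pairs passed. Without calorie restricted replicates 3 and 5, 0 of the 6 did in the exact permutation test (adjusted p from 0.0536 to 0.161), with 3 arrays against 5. The smallest p that 3 against 5 allow is larger than for 5 against 5. A pair whose diets do not overlap can then miss the threshold, so this test cannot tell whether the differences rest on those arrays. With 1 array left out, Gstm5 100631_r_at minus 161722_f_at passed in 3 of 10 cases, without control replicate 1 or calorie restricted replicate 1 or 4, and 100629_at minus 100631_r_at was lost without control replicate 4. The widest was Gstm5 100630_f_at minus 100631_r_at, at 5.33, 6.92, 7.81, 6.45 and 8.92 in calorie restricted and 4.91, 3.69, 3.75, 3.09 and 3.46 in control mice. The groups did not overlap, and the mean differed by 3.30 on the log2 scale, or 9.88-fold (exact permutation p = 0.00794, adjusted p = 0.0179). The arrays with the highest values, calorie restricted replicates 5 and 3, are those with the highest Gapdh ratios. Without them the difference was 2.45 (exact permutation, adjusted p = 0.0536), in a test of 3 against 5 arrays, and the diets still did not overlap.

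For Gstm1 the difference of 161633_r_at minus 93543_f_at averaged -4.55 ± 0.35 under calorie restriction, against -3.77 ± 0.16 in controls (SD over 5 arrays; exact permutation test, adjusted p = 0.0179). Between diets it was -0.78, and -0.15 under quantile normalization (exact permutation, adjusted p = 0.524). Gstm5 100630_f_at minus 161722_f_at likewise was 1.28, and 0.40 under quantile normalization (exact permutation, adjusted p = 0.524). Gstm5 100629_at minus 100631_r_at was 1.97, and 1.67 there (exact permutation, adjusted p = 0.0536). The pairs of Gstm2 and Gss did not pass, and differed between diets by 0.30 and -0.04 (exact permutation, adjusted p = 0.714 and 0.937). The remaining pair, Gstm5 100629_at minus 161722_f_at, differed by -0.05 (exact permutation, adjusted p = 0.937).

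**Figure D2:**
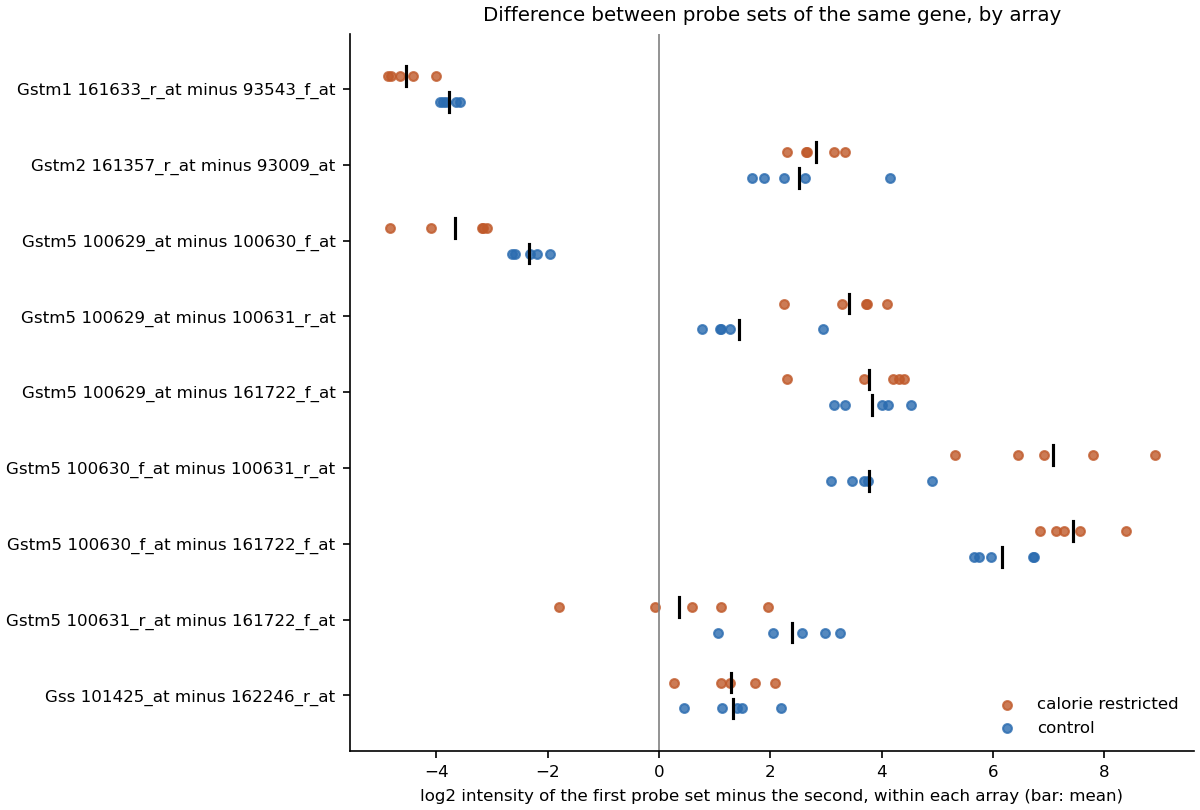
Log2 intensity of one probe set minus another of the same gene within each array, for the 9 pairs, with calorie restricted arrays above control arrays and a black bar at each mean. In 4 pairs, 3 of Gstm5 and that of Gstm1, the diets do not overlap. The share of such pairs among other genes was not computed.

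Gsta4, the alpha class transferase that is most active on hydroxynonenal, an aldehyde from lipid peroxidation, had higher signals in calorie restricted mice than in 4 of the 5 control mice. Its only probe set, 96085_at, had 221, 285, 423, 192 and 398 in calorie restricted mice, against 99.2, 53.8, 70.6, 96.7 and 311 in control mice. Without control replicate 5, at 311, the groups would not overlap. Their mean log2 signals were 8.18 ± 0.50 under calorie restriction and 6.68 ± 0.96 in controls (SD). The control mean lies below 6.85, the lowest mean tested, so Gsta4 was tested only through the diet in which it is high, and no fold is given. The change was 1.65 ± 0.44 (SE, n = 5 per diet; limma adjusted p = 0.0475). With no filter on signal it was 1.72 ± 0.45 and missed the threshold, as it did at 1.44 ± 0.50 with array weights (limma adjusted p = 0.0620 and 0.0876). The call was also lost with any of 9 of the 10 arrays left out, with changes of 1.42 to 1.80 (limma adjusted p = 0.0504 to 0.110), and the change was 2.04 with a limma adjusted p of 0.0204 without control replicate 5. Neither 1.27 ± 0.52, without calorie restricted replicates 3 and 5, nor 1.08 ± 0.53, under an RNA quality covariate, passed (limma adjusted p = 0.163 and 0.280). With spike-in signal added to that covariate it was 0.73 ± 1.09 (limma adjusted p = 0.867).

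Gstp1, the pi class transferase, which is known as abundant in oligodendrocytes, had 6201, 5790, 7466, 6285 and 4518 in calorie restricted and 4908, 3950, 4377, 4787 and 5142 in control mice. Calorie restricted replicate 5 was the one array of its diet within the control range, and the probe set did not pass (change 0.53 ± 0.17, SE; limma adjusted p = 0.144). Without that array it passed at 0.60 (limma adjusted p = 0.0431), and under quantile normalization it had 0.07 (limma adjusted p = 0.868).

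Gstt1, of the theta class, ran from 268 to 448, median 355, in calorie restricted and from 195 to 364, median 323, in control mice. Its change was 0.51 ± 0.23 (SE; limma adjusted p = 0.305). Gsto1, of the omega class, which also reduces dehydroascorbate, ran from 470 to 791, median 622, and from 551 to 650, median 581, in the same order. The calorie restricted arrays of Gsto1 lay on both sides of the control arrays, with a change of 0.19 ± 0.18 (SE; limma adjusted p = 0.918).

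The synthesis genes gave no call. Gclc, the catalytic subunit of the rate-limiting ligase, had 404, 370, 480, 380 and 767 in calorie restricted and 379, 425, 373, 262 and 521 in control mice, with a change of 0.42 ± 0.25 (SE; limma adjusted p = 0.479). Its highest arrays were replicate 5 of each diet. Gclm, the modifier subunit, had 294, 296, 350, 189 and 390 in calorie restricted and 261, 327, 322, 315 and 309 in control mice, with a change of 0.10 ± 0.22 (SE; limma adjusted p = 0.897). The spread of Gclm was wider in calorie restricted mice, with an SD of 0.40 on the log2 scale against 0.13 in control mice. Under an RNA quality covariate Gclc and Gclm had -0.07 and -0.23, on the other side of the median.

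Gss, which completes the tripeptide, had the lower mean signal in calorie restricted mice in both probe sets. The set 101425_at had 541, 659, 311, 548 and 442 in calorie restricted and 729, 562, 749, 833 and 710 in control mice. Calorie restricted replicate 2 alone lay above the lowest control array, and the change was -0.40 ± 0.22 (SE; limma adjusted p = 0.108). The set 162246_r_at had 249, 155, 259, 165 and 182 in calorie restricted and 260, 412, 340, 313 and 154 in control mice, overlapping through control replicate 5, with a change of -0.36 ± 0.29 (SE; limma adjusted p = 0.248). The 2 Gss probe sets gave like changes between diets but not like values by array. Calorie restricted replicate 2 was the highest of its diet in 101425_at and the lowest in 162246_r_at. Control replicate 2 was the lowest of its diet in 101425_at and the highest in 162246_r_at.

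**Figure D3:**
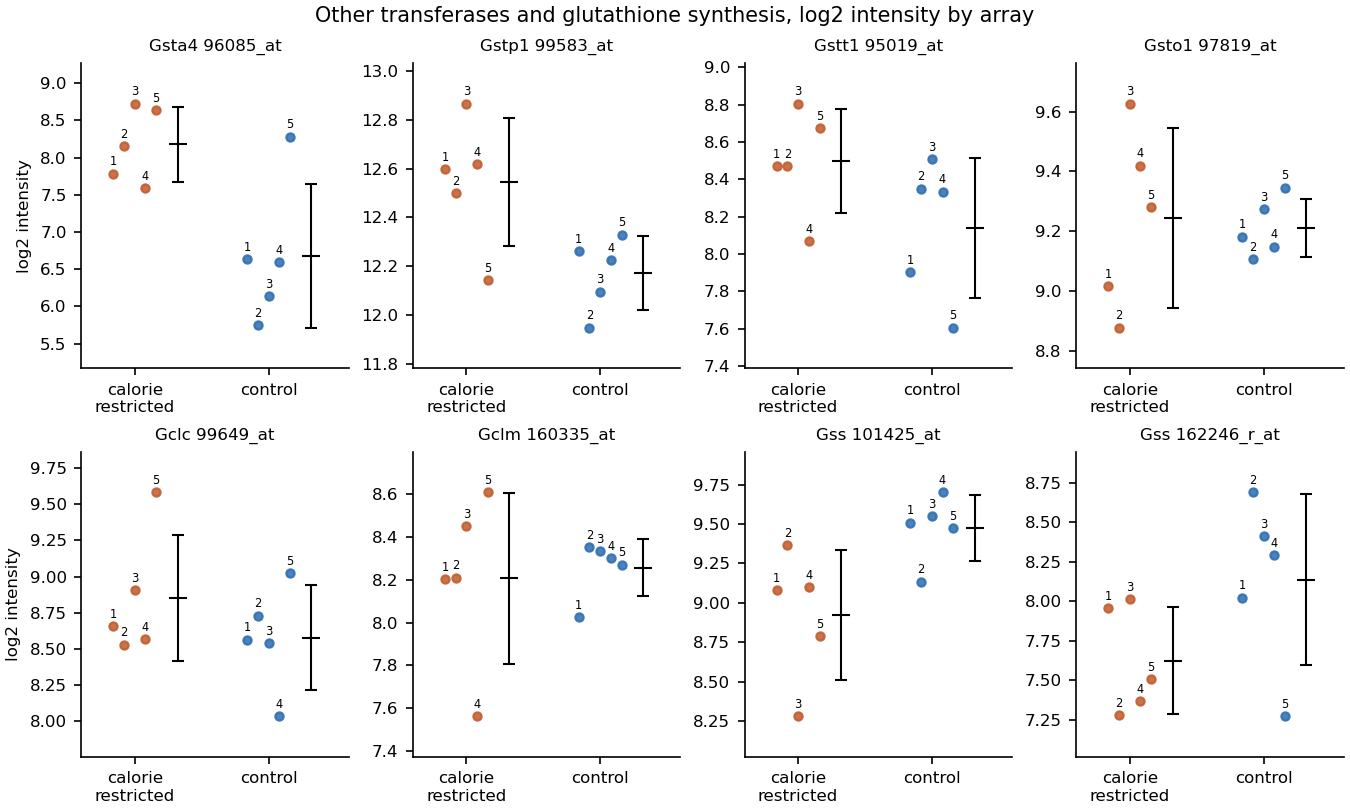
Log2 intensity of the 8 probe sets outside the mu class, drawn in the same way, with calorie restricted arrays left and control arrays right (mean ± SD, n = 5). Calorie restricted arrays of Gsta4 lie above 4 of the 5 control arrays, and the diets overlap in each of the 8 panels.

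Signal level went with the changes over the whole array. The brightest 1491 tested probe sets had a median change of 0.28 relative to all, with 166 higher and 32 lower, and the dimmest 1491 had -0.26, with 19 higher and 116 lower. Gstm1 93543_f_at, Gstm5 100630_f_at, Gstm5 100629_at and Gstp1 were among the brightest and Gsta4 and Gstm5 161722_f_at among the dimmest. Under quantile normalization Gsta4 had 1.87 ± 0.47 (limma adjusted p = 0.0326). There 1 of the 15 member probe sets rose and 1 fell, Gsta4 and Gstm5 100631_r_at, where 8.06% of all tested passed, 4.32% higher and 3.74% lower. The tested probe sets were the same as before, so the Gsta4 call carries no weight in that count either. Without calorie restricted replicates 3 and 5 the 2 calls were Gstm5 100630_f_at and 100631_r_at, 1 up and 1 down, where 10.5% of all tested passed, 3.98% higher and 6.52% lower. Under an RNA quality covariate 0 of the 15 passed in limma and 4 had an unadjusted p under 0.05, where 4.47% of all tested passed, 2.08% higher and 2.39% lower.

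**Figure D4:**
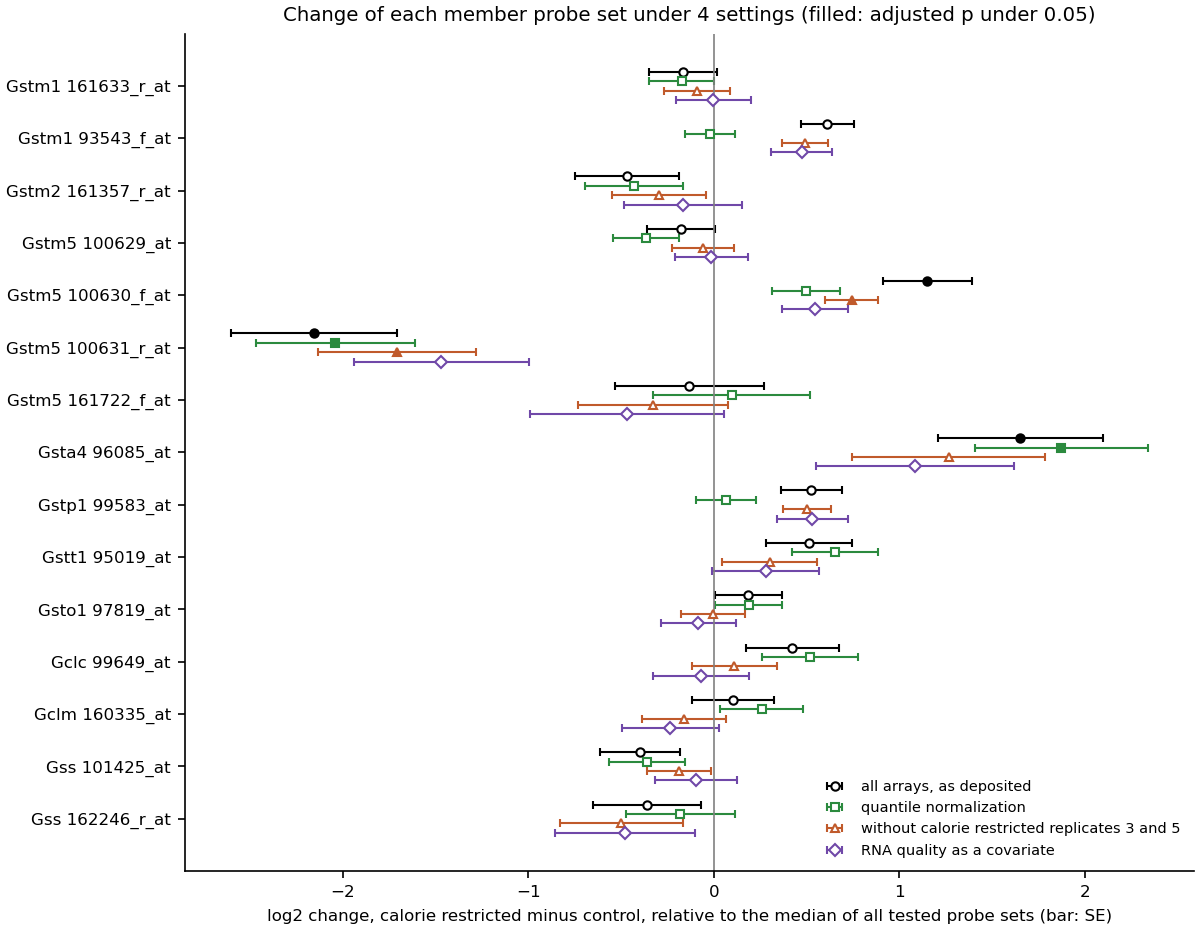
Change of each of the 15 tested probe sets on a log2 axis, relative to the median of all tested, with bars of 1 SE, under 4 settings. Values above 0 are higher under calorie restriction. Filled symbols passed at a limma adjusted p under 0.05. Gstm5 100631_r_at lies at -2.15 to -1.47 in all 4 settings, and the bright Gstm1 93543_f_at and Gstp1 fall to about 0 under quantile normalization.

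Other genes of the pathway were read from 3 lists. Of 11 tested probe sets of other transferases and proteins with a transferase fold, 0 rose and 1 fell, 9.09% against the 11.8% of all tested probe sets, with a median change of 0.33. The one that fell, Clic4 94254_at, a chloride intracellular channel protein with a transferase fold, had 1629, 1529, 1952, 1703 and 1240 in calorie restricted and 2201, 2338, 3973, 3068 and 2784 in control mice, without overlap (change -0.66 ± 0.20, SE; limma adjusted p = 0.0236). Of all tested probe sets 9.35% had no overlap in that direction. The other Clic4 sets, 94255_g_at and 94256_at, had -0.26 and 0.94 and did not pass. Gdap1, a mitochondrial outer membrane protein of the same fold, had the next smallest p and a change of 0.87 ± 0.24 without passing (limma adjusted p = 0.0682).

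Of 11 tested probe sets for glutathione reduction, supply and turnover, 0 rose and 2 fell, with a median of 0.07. The share called was 18.2%, against 11.8% of all tested probe sets, 4.11% higher and 7.74% lower. In 9.35% of all tested probe sets every calorie restricted array lay below every control array. Gpx1, the cytosolic glutathione peroxidase, had 684, 716, 660, 550 and 595 in calorie restricted and 951, 1029, 989, 1165 and 1088 in control mice, without overlap (change -0.55 ± 0.15, SE; limma adjusted p = 0.0177). Glo1, which uses glutathione to detoxify methylglyoxal, had 521, 405, 473, 483 and 759 in calorie restricted and 867, 841, 885, 806 and 896 in control mice in set 93268_at, also without overlap (change -0.58 ± 0.18; limma adjusted p = 0.0282). Its other set, 93269_at, had 0.22 ± 0.18 and did not pass, so Glo1 too gave unlike values in its probe sets. Gsr, the glutathione reductase, had 0.02 ± 0.23 (SE; limma adjusted p = 0.711).

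Of 20 tested probe sets of other Nrf2 targets and regulators, 2 rose and 1 fell, or 15% against the 11.8% of all tested, with a median of 0.03. In 4.96% of all tested probe sets every calorie restricted array lay above every control array. Txn1, thioredoxin, had 2661, 2975, 4853, 2907 and 5208 in calorie restricted and 2290, 2140, 1564, 1372 and 2124 in control mice, without overlap (change 1.09 ± 0.24, SE; limma adjusted p = 0.0283). Ephx1, the microsomal epoxide hydrolase, had 124, 152, 474, 365 and 645 in calorie restricted and 99.0, 100.3, 150, 59.1 and 102 in control mice, and overlapped through calorie restricted replicate 1 (change 1.73 ± 0.46; limma adjusted p = 0.0462). Mean log2 signals were 8.19 under calorie restriction and 6.61 in controls, the control mean below the lowest mean tested, so Ephx1 too was tested only through the diet in which it is high. With no filter on signal it had 1.80 ± 0.46 and missed the threshold (limma adjusted p = 0.0597), and its call carries no weight in the count. Srxn1, sulfiredoxin, had 320, 405, 255, 254 and 262 in calorie restricted and 629, 645, 450, 689 and 488 in control mice in set 161090_i_at (change -0.81 ± 0.21; limma adjusted p = 0.0180), and 0.36 ± 0.27 in 102780_at, which did not pass. Nfe2l2, which encodes Nrf2, had -0.16 ± 0.21 (SE; limma adjusted p = 0.315). The 6 calls of these lists moved with the alternatives. Under an RNA quality covariate Glo1 93268_at passed (-0.88 ± 0.20, limma adjusted p = 0.0248), and Clic4 94254_at (-0.64), Gpx1 (-0.56), Srxn1 161090_i_at (-0.67), Txn1 (0.53) and Ephx1 (0.70) did not. With spike-in signal added, 0 of the 6 passed in limma, and Clic4 94254_at (0.25) and Txn1 (-0.09) turned direction. Without calorie restricted replicates 3 and 5 the 4 that were lower passed, and Txn1 (0.72 ± 0.18) and Ephx1 (1.06 ± 0.45) did not (limma adjusted p = 0.0547 and 0.186). With 1 array left out Gpx1 passed in 10 of 10 cases, Clic4 94254_at and Srxn1 161090_i_at in 8, Txn1 in 6, Glo1 93268_at in 3 and Ephx1 in 2. Clic4 94254_at was lost without control replicate 3 or 4, Srxn1 161090_i_at without control replicate 2 or 4, and Txn1 without control replicate 2, 3 or 4 or calorie restricted replicate 3. Glo1 93268_at passed without calorie restricted replicate 1, 2 or 5, and Ephx1 without calorie restricted replicate 1 or 2. Under quantile normalization Glo1 93268_at missed the threshold (-0.62, limma adjusted p = 0.0558). Over the 3 lists 2 of 42 probe sets rose, Ephx1 among them, and 4 fell, where 4.11% of all tested rose and 7.74% fell. Without calorie restricted replicates 3 and 5, 0 rose and 5 fell, where 3.98% and 6.52% of all tested did. An RNA quality covariate left 0 that rose and 2 that fell, where 2.08% and 2.39% of all tested did.

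**Figure D5:**
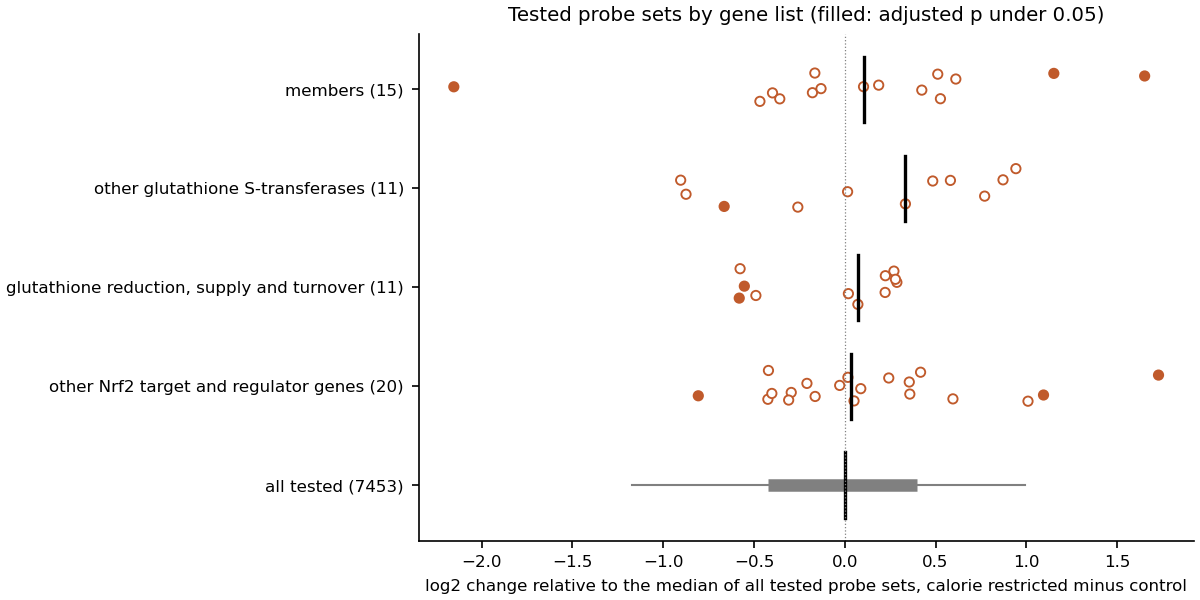
Change on a log2 axis, relative to the median of all tested and positive where calorie restricted mice were higher, for the 15 member probe sets (top), the 3 pathway lists and, as a grey bar, all 7453 tested. Each circle is a probe set, filled where the limma adjusted p is under 0.05, and black bars are medians. The grey bar spans the 25th to 75th percentile, -0.42 to 0.40, and its line the 5th to 95th, -1.17 to 0.99. Of the members, Gstm5 100631_r_at, Gstm5 100630_f_at and Gsta4 lie outside that line.

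Markers of the cells that carry these enzymes were read on the same arrays, where fewer cells of a type and less RNA per cell cannot be told apart. Of 16 tested probe sets of 11 astrocyte genes 1 rose and 6 fell, and their median change was -0.60. The share called was 43.8%, against 11.8% of all tested probe sets, 4.11% higher and 7.74% lower. Glul 94852_at rose (2.02) while Glul 161826_r_at fell (-0.53), and Aqp4 fell in both 102703_s_at and 102704_at. Atp1b2 and Fgfr3 fell with calorie restricted means of 6.80 and 5.94, below 6.85. They were tested only through the control arrays, and their calls carry no weight in the count. The summed intensity of all 19 measured astrocyte probe sets ran from 28720 to 35230 in calorie restricted and from 22900 to 31120 in control mice, so the sum and the median pointed to opposite sides. Gfap, the astrocyte filament, had -1.15 ± 0.42 and -0.17 ± 0.43 (SE) in 2 probe sets and Slc1a2, the glial glutamate transporter, 0.28 ± 0.41, and none of these passed (limma adjusted p = 0.0616, 0.627 and 0.855). Slc1a3, another glial transporter, had no tested probe set. Of 14 oligodendrocyte probe sets 0 rose and 6 fell, or 42.9%, with a median of -0.56. Their sums were 26370 to 37570 in calorie restricted and 34290 to 41980 in control mice. Mobp 99046_at, 99047_at and 99048_g_at are among those that fell, while Mobp 100536_at had 0.87 and did not pass. Ugt8a fell with a calorie restricted mean of 6.16, below 6.85, so its call carries no weight either. Of 10 microglial probe sets 0 rose and 2 fell, or 20%, and of 5 endothelial ones 0 passed in limma, also at an unadjusted p under 0.05.

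Choroid plexus and ependymal probe sets, from tissue that borders the hippocampus, had 0 that rose and 2 that fell among 5, with a median of -1.36. The share called was 40%, against 11.8% of all tested probe sets. Their sums ran from 1351 to 15930 in calorie restricted and from 3710 to 12770 in control mice. General neuronal markers had 2 that rose and 3 that fell of 12, or 41.7%. Among them Map2 fell with a calorie restricted mean of 5.90, below 6.85, the lowest mean tested, so its call carries no weight. Markers of hippocampal neurons had 1 that rose and 2 that fell of 10, or 30%. Hippocampal neuron sums were 9031 to 13980 in calorie restricted and 12520 to 17000 in control mice. Of 2 blood probe sets 0 passed in limma at either. No marker probe set had a value of 0 on any array. The part of these markers in the changes of the transferases was not tested.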

How the data were processed

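The authors' deposited table holds 12488 intensity values per array on a linear scale, which the submitters' processing notes credit to MAS5, without further settings in what was read here. The mean without the lowest and highest 2% was 500.2 to 500.4 on each array. Array pairs correlated at most at 0.937.

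Values under 1 (41 of 124880) were set to 1 and log2 was taken. The 66 control probe sets were left out, and probe sets with a mean below the 40th percentile of the remaining 12422. A single gene symbol was annotated for 10833 probe sets, more than 1 for 396, and 1193 had no symbol; 10817 of the 10833 matched RefSeq by gene number. Diets were compared with lmFit and eBayes, with a trend, in limma 3.58.1 under R 4.3.3, which was tested on simulated data. Single values were compared by exact permutation over arrays. The number of arrays limits the precision.

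The members, lists and alternatives were chosen with earlier results of these data known. The naming rule took all members, every pathway probe set that passed, the 2 with the smallest p where fewer than 2 did, and Gfap, Slc1a2 and Slc1a3 of the marker lists. Gsr, Nfe2l2, the further probe sets of Clic4, Glo1 and Srxn1 and the other named marker genes were added after their values were seen. So were the comparison between probe sets of one gene and the values of pathway calls under the alternatives. The alternatives were quantile normalization, other signal filters, an offset of 16, no variance trend, array weights, covariates, a replicate block, and arrays left out. Same-numbered mice of the diets share only a number.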

Additional observations from a re-analysis of the deposited data

Results flagged for a closer look

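Each diet group of 5 arrays was checked for an array far from the rest in the 16 member probe sets and 5 array measures. Of 42 groups 4 held one, where chance gives about 1 in 20. Gstm2 161357_r_at had a log2 signal of 7.96 in calorie restricted replicate 5, an intensity of 249 where the other 4 arrays had 486 to 568. The same probe set had 8.61 in control replicate 1, or 392 against 703 to 890. Gclm had 8.03 in control replicate 1, or 261 against 309 to 327 in the other control arrays. The log2 Gapdh 3′ over 5′ ratio was 0.62 in control replicate 5, the array that also had the highest Gsta4 signal of its diet.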

How the results depend on the processing

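Of 296 values of single member probe sets under the alternatives, 250 kept their direction and their side of the threshold, 24 lost it, 5 gained it and 17 turned direction relative to the median of all probe sets. Under quantile normalization Gstm1 93543_f_at had -0.022 and Gstm5 161722_f_at 0.10, and that set had 0.0065 without control replicate 4 and 0.044 without calorie restricted replicate 3. Left out singly, arrays moved it over -0.44 to 0.044, and Gclm over -0.027 to 0.27; Gclm had -0.027 without calorie restricted replicate 5. With array weights Gclm had -0.070. With RNA quality as a covariate Gsto1 had -0.082, Gclc -0.069 and Gclm -0.23, and without calorie restricted replicates 3 and 5 Gsto1 had -0.0028 and Gclm -0.16. When spike-in signal joined RNA quality in the model, an alternative added after the data were seen, Gstm2 161357_r_at had 0.68, Gstm5 100629_at 0.18, Gstm5 100631_r_at 0.24, Gclc -0.43, Gclm -0.45 and Gss 101425_at 0.065; 0 of 15 member, 0 of 42 pathway and 0 of all probe sets passed in limma, with 1, 6 and 907 at an unadjusted p under 0.05. The cause of these turns was not tested.

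With RNA quality alone 333 of all tested probe sets passed, 0 member and 2 pathway ones, against 883, 3 and 6 on all arrays without it. At an unadjusted p under 0.05 there were 2352 on all arrays. With each array left out in turn the counts ran from 253 to 1251 over all, from 1 to 4 among members and from 1 to 8 in the pathway lists. The members held 1 call without control replicate 1, 2, 3 or 4 or calorie restricted replicate 3. The pathway lists held 2, 2 and 1 without control replicates 2, 3 and 4 and 3 without calorie restricted replicate 3. The mean log2 ratio of RNA quality differed between diets by 1.92 to 3.25 with 1 array left out, and missed the threshold without control replicate 1, 2, 3 or 4 (exact permutation p = 0.0556 to 0.0635). The diets did not overlap in any of these cases, since calorie restricted arrays had at least 0.78 and control arrays at most 0.45. Without calorie restricted replicates 3 and 5 the difference was 0.88 (exact permutation p = 0.0179). A replicate block left 540 calls over all, 2 among members, where Gsta4 was lost (limma adjusted p = 0.0540), and 3 in the pathway lists, where Gpx1, Glo1 and Ephx1 were lost. With no filter on signal the member calls were 2, 1 of them higher, since Gsta4 was lost. Deviations of same-numbered arrays correlated at -0.08 to 0.17, and 1 of 5 calorie restricted arrays correlated best with its own number. With no filter Gstm2 93009_at had -0.69 ± 0.43 (SE; limma adjusted p = 0.203).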

Other observations

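Further genes of the glutathione and antioxidant lists, chosen after their values were seen, did not pass. Gstm3, of the mu class, had -0.90 ± 0.50 in 97682_r_at and 0.02 ± 0.18 in 97681_f_at (SE, n = 5 per diet; limma adjusted p = 0.167 and 0.618). Mgst1, a membrane-bound transferase, had 0.77 ± 0.26 and Gsta2, of the alpha class, -0.87 ± 0.40 (limma adjusted p = 0.124 and 0.107). For Hmox1, heme oxygenase, and Cat 161877_f_at, catalase, every calorie restricted array lay below every control array, as for 9.35% of all tested probe sets, with changes of -0.30 ± 0.15 and -0.42 ± 0.18 (limma adjusted p = 0.0701 and 0.0544).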
